A study of Homo sapiens with 4 samples.

Results

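EWS-FLI1, the fusion transcription factor of Ewing sarcoma, both switches genes on and holds others down. Among the genes described in the field as held down are 10 that mark mesenchymal, adherent cells: TGFBR2, FOXO1, SNAI2, NT5E, CD44, PTRF, VIM, ZYX, NEDD9 and LOX. They were taken by symbol from the deposited counts, and all 10 were found among the 23228 genes listed. All libraries are of A673, a long-established line grown from an Ewing sarcoma and driven by this fusion. Each of the 4 groups has 1 library, taken 48 h after siRNA transfection. The group control_SMPD1 received scrambled siRNA and shares the 48 h of its title with siSMPD1, in which SMPD1 (acid sphingomyelinase) was targeted. The group control_GPR64 also received scrambled siRNA and is the titled partner of siGPR64, in which GPR64 (an adhesion G protein-coupled receptor, now ADGRG2) was targeted. All 4 groups are thus the same line. By label they differ in the siRNA they received, except the controls, which are both labelled scrambled. No group has another culture, so no difference below has a replicate check. Whether the pairs were cultured or sequenced together is not given. In such bulk libraries, fewer cells of a kind and less RNA per cell cannot be told apart.

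As background, EWS-FLI1 recruits activating complexes to repeats of GGAA, the core that ETS factors read, while at other genes it acts, directly or through its targets, to lower transcription. When the fusion is silenced in Ewing sarcoma lines, genes of adhesion, matrix, cytoskeleton and TGF-beta signalling are known to come up, and the cells spread. A state with little fusion activity and much of this mesenchymal programme is known for migration and invasion. Whether silencing of SMPD1 or GPR64 moves the same genes is the question put here to the counts.

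The stretches upstream of 3 of the genes are shown so that GGAA, the letters EWS-FLI1 and other ETS factors read, can be seen beside the levels. TGFBR2 was higher in both knockdown libraries than in their partners, and VIM has the highest level of the 10 genes. Of the 8 genes with an upstream stretch to search, NEDD9 alone holds 2 adjoining copies of GGAA. Each line gives the 250 bases before the most upstream RefSeq start, 5′ to 3′ on the gene's strand, in build GRCh38.p14, which is not the build the files use. Capitals mark each GGAA and its reverse complement TTCC.
TGFBR2 (chr3:30606106-30606355, plus strand): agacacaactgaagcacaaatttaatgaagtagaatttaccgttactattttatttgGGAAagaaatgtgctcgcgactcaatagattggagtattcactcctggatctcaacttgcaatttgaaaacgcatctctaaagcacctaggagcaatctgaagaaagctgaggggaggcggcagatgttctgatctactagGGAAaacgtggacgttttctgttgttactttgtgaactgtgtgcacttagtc
VIM (chr10:17227991-17228240, plus strand): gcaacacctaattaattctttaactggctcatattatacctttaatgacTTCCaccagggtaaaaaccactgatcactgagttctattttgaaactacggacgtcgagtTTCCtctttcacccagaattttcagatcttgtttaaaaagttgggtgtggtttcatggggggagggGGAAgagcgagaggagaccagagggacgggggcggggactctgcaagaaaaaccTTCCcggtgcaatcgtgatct
NEDD9 (chr6:11382349-11382598, minus strand): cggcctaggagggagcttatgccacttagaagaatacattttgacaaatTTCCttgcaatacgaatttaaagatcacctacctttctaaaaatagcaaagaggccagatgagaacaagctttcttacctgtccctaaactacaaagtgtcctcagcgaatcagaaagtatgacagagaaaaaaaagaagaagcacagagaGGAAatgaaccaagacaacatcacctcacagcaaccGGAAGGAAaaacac

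Of the 10 genes, 8 had a window in the RefSeq table (not SNAI2 and PTRF), and all 8 held GGAA on either strand. That is a common match: 92.8% of 27305 windows of the same length over the genome hold it, with a median of 3 matches. TGFBR2, NT5E and CD44 had 2 matches, FOXO1 had 1, and LOX, VIM, ZYX and NEDD9 had 4. The doubled form GGAAGGAA was found in NEDD9 and in 2.99% of all windows, and its matches are also counted as GGAA. The E-box CAGGTG that SNAI2 reads, the AP-1 site TGACTCA, the TEAD site GGAATG and the FOXO site TGTTTAC were searched on both strands and had no match in the 8 windows. They were in 17.5%, 4.15%, 11.95% and 3.01% of all windows.

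Levels are given as CPM, a gene's reads per 1000000 gene reads, scaled to library size, with TMM scaling between libraries. Gene counts summed to between 2534861 and 19614913 a library, the GPR64 pair being the shallower, so that a count of 0 allows up to 0.156 CPM in control_SMPD1 and 0.159 in siSMPD1, but 1.03 in control_GPR64 and 1.18 in siGPR64. Each targeted gene was lower where it was targeted than in that library's partner. SMPD1 was 4.52-fold lower in siSMPD1 and GPR64 2.16-fold lower in siGPR64. SMPD1 itself was 7.85-fold lower in control_GPR64 than in control_SMPD1 and 4.38-fold higher in siGPR64 than in its partner. At 52.8 CPM in control_GPR64, SMPD1 was below its 91.7 CPM in siSMPD1. GPR64 was 3.57-fold lower in control_GPR64 than in control_SMPD1 (108.6 against 387.7 CPM), a larger ratio than that of its knockdown. Of 10 Ewing sarcoma markers, 9 were at 1 CPM or more in each library, and CD99 was listed at 0 in all 4. The labels give the tissue as muscle. Of 12 skeletal muscle markers only PAX3 was above 1 CPM, and MYOD1, MYOG, MYF5 and MYF6, the factors that define the lineage, had 0 counts in all 4 libraries. EWSR1 and FLI1, the genes joined in the fusion, stood between 220.2 and 291 CPM and between 66.5 and 85.0 CPM. FLI1 reads cannot be split here into fusion and wild-type transcripts.

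In level per length (CPM per kilobase of annotated exon, mean of the 4 libraries), VIM was far above the others at 893. ZYX followed at 39.2, TGFBR2 at 16.8, PTRF at 11.9 and NT5E at 8.78. FOXO1, NEDD9, LOX, SNAI2 and CD44 lay between 0.374 and 1.42. In A673 the list thus spans a strongly expressed filament gene, 4 genes at middle levels and 5 at low levels. For those 5 the GPR64 pair holds at most 29 reads a library.

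**Figure D1:**
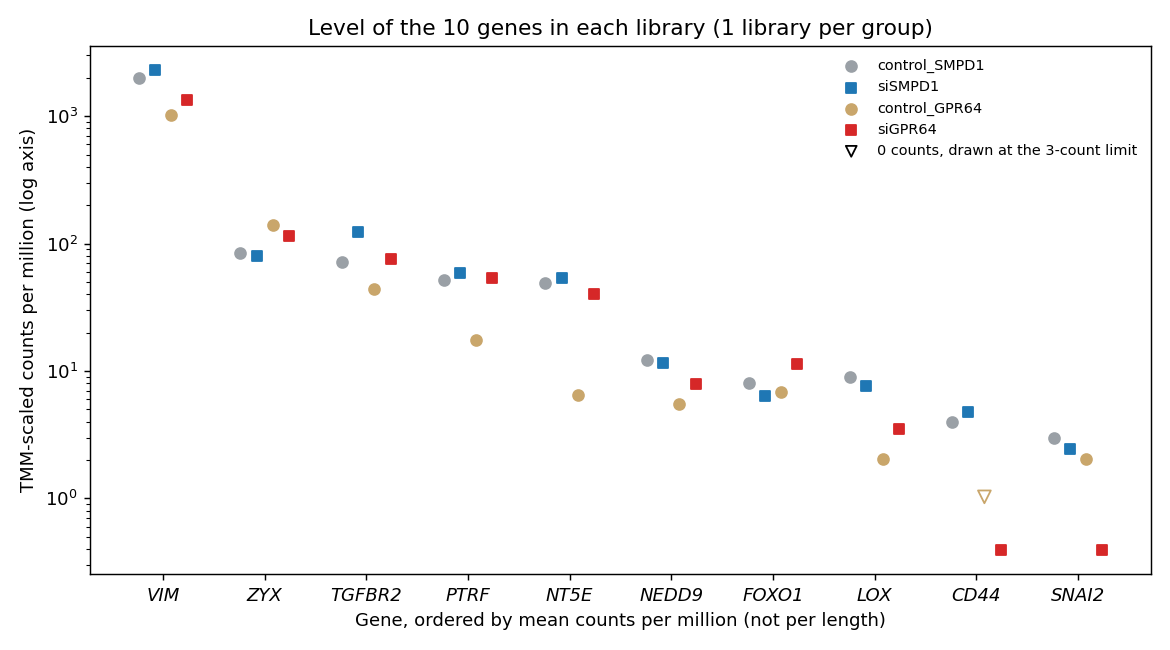
TMM-scaled CPM (log axis) of each gene in the 4 libraries, with circles for the scrambled controls and squares for the knockdowns; 1 point is 1 library, so there are no error bars. Control_GPR64 is the lowest point for 7 of the 10 genes, and CD44 has 0 counts there (open triangle at the 3-count limit) and 1 count in siGPR64.

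The pattern common to most of the genes was a low level in control_GPR64. In 7 of 10 genes (TGFBR2, NT5E, CD44, PTRF, VIM, NEDD9 and LOX) that library was the lowest of the 4, where 32.4% of all 12887 genes averaging 1 CPM or more have their lowest level. That library is a scrambled control and the base of the GPR64 ratios. For 4 of the 7 its counting interval was separated from the next library up, while for LOX, CD44 and NEDD9 it was not separated from siGPR64. A gene is called past the rule of size below when the mean of the 2 libraries is at least 1 CPM, the ratio is at least 2-fold, and the 95% counting interval excludes equality. That interval, given in brackets after a fold in the direction of that fold, covers the sampling of reads alone.

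Set against control_SMPD1, control_GPR64 was lower for 9 of the 10 genes, as were 50.9% of all genes tested (or equal). Of the 10, 5 were lower past the rule (NT5E, PTRF, LOX, NEDD9 and CD44) and none higher, where 8.33% of all 12798 genes tested were lower and 7.02% higher. The interval lay below 1 for 7 genes and above 1 for ZYX, beside 29.4% and 27.9% of all genes tested. CD44 reached the 1 CPM mean through control_SMPD1 alone, and with 1 CPM asked of both libraries the count is 4. The median log2 ratio was -1.06 over the 10 genes and -0.01 over all genes tested. Both libraries are labelled scrambled siRNA, so the size of these ratios shows how far libraries of like label differ for this list. Pair, depth and any difference in culture cannot be told apart in it. Entries that did not align uniquely made up 30.1% of all entries in control_SMPD1 and 21.4% in control_GPR64, and their part in these ratios was not tested.

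In the siSMPD1 library, against its partner, TGFBR2 had the largest ratio of the 10, at rank 544 from the top of 12749 genes. None of the 10 passed the rule of size (3.6% of 12749 genes tested did, 2.49% higher and 1.11% lower). The median log2 ratio of the 10 was 0.02, beside -0.00 over all genes tested, with 5 genes above and 5 below equality. For TGFBR2, PTRF and VIM the counting interval lay above 1, as it did for 28.1% of all genes tested, and for none did it lie below, as it did for 28.8%. In the siGPR64 library, 9 of the 10 genes reached a mean of 1 CPM with its partner, CD44 being the exception. Of the 9, NT5E and PTRF were higher past the rule and none was lower, where 6.56% of 12830 genes tested were higher and 5.18% lower. The interval lay above 1 for 4 of them (NT5E, PTRF, TGFBR2 and VIM) and below for ZYX, beside 22.2% and 20.2% of all genes tested. It lay above 1 in both pairs for TGFBR2, VIM and PTRF, and for 8% of the 12386 genes tested in both. The difference between the pairs' log2 ratios excluded 0 by counting error for 4 of the 10 (NT5E, PTRF, FOXO1 and VIM), a share near the 45.6% of those 12386 genes. The median of the 9 was 0.71, beside 0.01 over all genes tested. Since control_GPR64 is both the base of this ratio and the library with the low levels, the 2 comparisons share it and do not stand for each other.

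**Figure D2:**
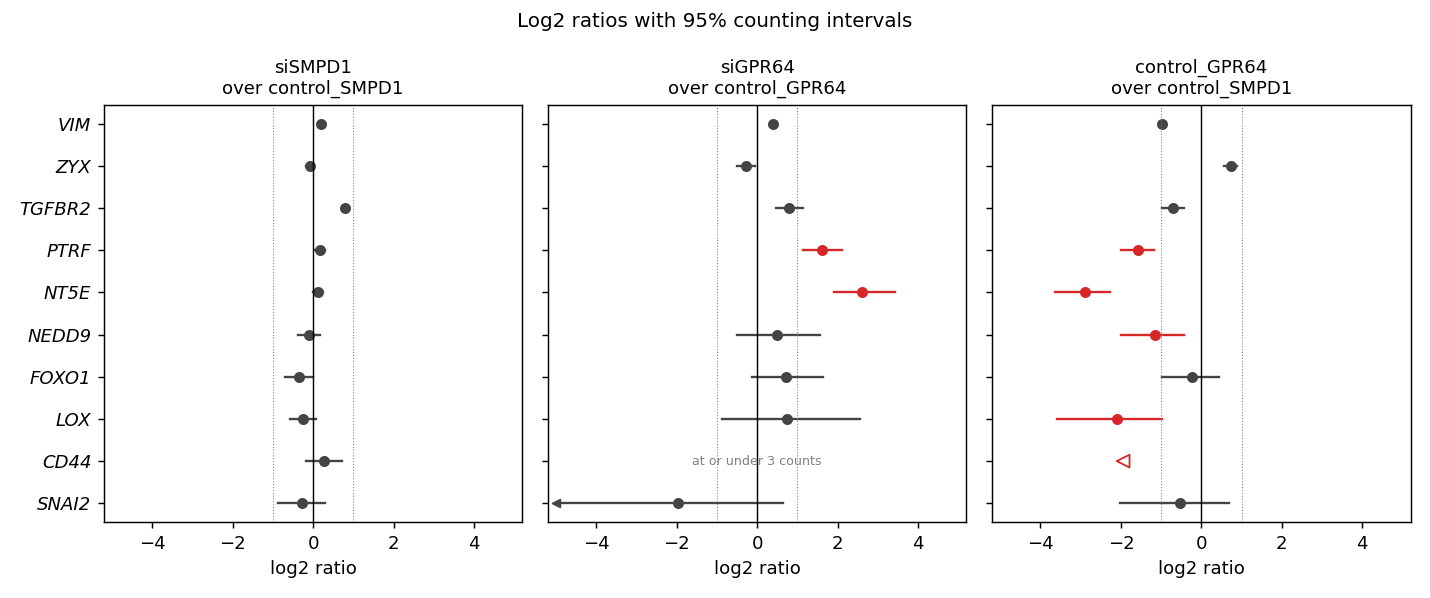
Log2 ratio of each gene in the 3 comparisons (points) with its 95% counting interval (lines), red where the rule of size is passed and dotted lines at 2-fold. In siSMPD1 all 10 genes lie within 2-fold; in siGPR64 NT5E and PTRF pass to the right, and in control_GPR64 over control_SMPD1 5 genes pass to the left. The open triangle is a bound for CD44 from a count of 0, and the SNAI2 line runs off the axis at the arrowhead.

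TGFBR2 encodes the type II TGF-beta receptor, the subunit that binds ligand and phosphorylates the type I receptor. It stood at 71.2 and 124.3 CPM in control_SMPD1 and siSMPD1, and 43.8 and 76.0 in control_GPR64 and siGPR64. Each knockdown library was thus above its own partner, while siGPR64 was level with control_SMPD1. TGFBR2 was 1.75-fold higher in siSMPD1 (95% counting interval 1.63 to 1.87) and 1.73-fold higher in siGPR64 (1.38 to 2.18). The log2 ratios of the 2 pairs, which share no library, differed by -0.01 (siGPR64 pair minus siSMPD1 pair, counting interval -0.35 to 0.32). Of 12386 genes tested in both pairs, 1.49% were at least 1.5-fold higher with an interval above 1 in both, and among the 10 genes TGFBR2 alone was. Against the other control, siSMPD1 was 2.83-fold higher (2.37 to 3.41) and siGPR64 1.07-fold higher, with an interval of 0.914 to 1.24 that holds equality. The controls differed by 1.62-fold (1.35 to 1.96), which is nearly as large as either knockdown ratio.

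Other genes of TGF-beta signalling, from a list of ligands, receptors, SMADs and latent binding proteins, had no common direction. Intervals lay above 1 for 7 of 20 and below 1 for 7 of 20 in the siSMPD1 pair, beside 28.1% and 28.8% of all genes tested. Of the 20, TGFBR1, the type I partner of TGFBR2, was higher past the rule and none was lower, beside 2.49% and 1.11% of all genes tested. The median log2 ratio was 0.03. TGFBR1 rested on few reads, with 94 counts in control_SMPD1 and 198 in siSMPD1, a ratio of 2.14-fold (1.67 to 2.77). In CPM these are 4.89 and 10.5, while control_GPR64 was at 8.91. In the GPR64 pair TGFBR1 had 26 counts in the control and 12 in the knockdown, with an interval that holds equality. None of the 20 passed the rule there, where 6.56% of all genes tested were higher and 5.18% lower, and the median was 0.05.

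FOXO1, a forkhead factor held in the cytoplasm by AKT and active when PI3K signalling is low, was at 8.02 and 6.31 CPM in control_SMPD1 and siSMPD1, and 6.85 and 11.4 in control_GPR64 and siGPR64. It was lower in siSMPD1 by 1.27-fold (0.994 to 1.63) but higher in siGPR64, by 1.64-fold (0.906 to 3.09), and both intervals hold equality. The difference between these log2 ratios was 1.06 (0.18 to 1.94), on 20 and 29 reads in the GPR64 pair. Its paralogs were lower in that pair. FOXO3 was 2.13-fold lower in siGPR64 (1.57 to 2.94) and FOXO4 2.26-fold lower (1.26 to 4.37), while SGK1, a kinase that phosphorylates FOXO proteins, was 3.25-fold higher (2.62 to 4.1). Of 9 genes measured in the FOXO and PI3K list, these 3 passed the rule in siGPR64 and none did in siSMPD1. Of all genes tested in the GPR64 pair, 6.56% were higher and 5.18% lower past the rule. FOXO3 and FOXO4 were also higher in control_GPR64 than in control_SMPD1, with log2 ratios of 1.80 and 1.08.

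SNAI2, the zinc finger repressor also called Slug, which drives epithelial-mesenchymal transition (EMT), was read from 57 and 46 counts in control_SMPD1 and siSMPD1, and 6 and 1 in control_GPR64 and siGPR64. In CPM these are 2.97, 2.44, 2.06 and 0.392. The first 3 levels are close, and siGPR64 is the low one. SNAI2 was 1.21-fold lower in siSMPD1 (0.811 to 1.84). In siGPR64 its ratio was 3.9-fold lower, with an interval from 0.637 to 241 that leaves the direction undetermined at this depth. Against control_SMPD1 the siGPR64 library was 6.88-fold lower, with an interval from 1.31 to 304. Among 6 measured EMT factors of the GPR64 pair, 1 was lower past the rule and none higher, beside 5.18% and 6.56% of all genes tested. This was ZEB1, another repressor of epithelial genes, at 3.29-fold lower (2.14 to 5.34). Against control_SMPD1 the same library had a ZEB1 log2 ratio of 0.35 with an interval that holds equality, and control_GPR64 was above control_SMPD1 by 2.08. Epithelial genes were uneven: CDH1 had at most 1 count in any library and GRHL2 had 0 in all 4, while the claudin gene CLDN1 was at 302 to 397 CPM and the keratin gene KRT18 at 78.8 to 153 CPM. The 8 epithelial markers of a separate list, which holds neither CLDN1 nor KRT18, summed to between 0.343 and 1.18 CPM a library.

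NT5E encodes CD73, the surface enzyme that turns AMP into adenosine and a standard marker of mesenchymal stromal cells. Its level was 48.9 and 53.3 CPM in control_SMPD1 and siSMPD1, and 6.51 and 40.3 in control_GPR64 and siGPR64. Control_GPR64 alone is low, on 19 reads, and the other neighbours in the order of levels were not separated by their counting intervals. NT5E was 6.06-fold higher in siGPR64 than in its partner (3.78 to 10.7), rank 111 from the top of 12830 genes. Against control_SMPD1 the same library was 1.21-fold lower (0.989 to 1.5), so the difference ends with the other control. In siSMPD1 it was 1.09-fold higher (0.995 to 1.19). The ratio between the controls was 7.47-fold (4.79 to 12.5), larger than that of the GPR64 knockdown. None of the other adenosine genes measured (6 in the siSMPD1 pair and 7 in the GPR64 pair) passed the rule. The largest ratio among them was that of DPP4, which anchors adenosine deaminase, with 4 and 7 counts in control_GPR64 and siGPR64.

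CD44, the hyaluronan receptor and another stromal marker, had 76 and 90 counts in control_SMPD1 and siSMPD1, and 0 and 1 in control_GPR64 and siGPR64. The SMPD1 pair was thus at 3.96 and 4.77 CPM, and both libraries of the other pair were at or under the 3-count limit. With 0 counts set to 3 and the 76 taken as they stand, control_GPR64 was at least 3.85-fold lower than control_SMPD1. The counting interval, which also lets the 76 vary, starts at 3.06-fold. The siGPR64 library was 9.14-fold lower than control_SMPD1 on its 1 count (1.76 to 404). No ratio can be given within the GPR64 pair. In siSMPD1 CD44 was 1.2-fold higher (0.878 to 1.66). The linkers that tie CD44 to actin, EZR, RDX and MSN, were abundant and lay within 2-fold in both pairs. HMMR, a hyaluronan receptor tied to mitosis, was 2.1-fold lower in siGPR64 (1.8 to 2.46). It was the single gene of 7 measured past the rule there, where 5.18% of all genes tested were lower. Control_GPR64 was its highest library, and against control_SMPD1 the siGPR64 library was 1.29-fold higher (1.12 to 1.48) and no gene of the 7 passed. None of the 7 passed in siSMPD1.

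Other mesenchymal surface genes gave 3 of 11 higher past the rule in siGPR64 and none lower, beside 6.56% and 5.18% of all genes tested, with a median log2 ratio of 0.45. The interval lay above 1 for 6 of the 11 and below for ITGB1, PDGFRB and CD63, beside 22.2% and 20.2% of all genes tested. ITGB1, the integrin beta 1 chain, was 1.63-fold lower (1.48 to 1.79). NGFR, the neurotrophin receptor CD271, was 3.44-fold higher (2.91 to 4.11) and THY1, known as CD90, 2.04-fold higher (1.82 to 2.29). MCAM, the adhesion molecule CD146, was 3.66-fold higher (2.03 to 7.4). MCAM was also the single gene of the 11 past the rule in siSMPD1, where 2.49% of all genes tested were higher. It was 3.16-fold higher there (2.8 to 3.59). Its level was 17.9 and 56.5 CPM in control_SMPD1 and siSMPD1, and 4.8 and 18.02 in control_GPR64 and siGPR64. It was lower in control_GPR64 than in control_SMPD1, as THY1 was. Against control_SMPD1 the siGPR64 median of the 11 was 0.01, with 1 higher and 1 lower past the rule. The fibroblast markers, which share THY1 and the collagens with these lists, were also lowest in control_GPR64 by their sum, most of which is COL1A2 and THY1: 9 genes summed to 1019 and 1324 CPM in control_SMPD1 and siSMPD1, and 406 and 855 in control_GPR64 and siGPR64. Of the 9, 4 to 6 were at 1 CPM or more in a library, LUM had 0 counts in both GPR64 libraries, and PDGFRA had 0 to 3 counts in any. DCN and FAP were highest in control_GPR64, but on 12 and 4 counts, the latter near the 3-count limit. COL1A1 was above its SMPD1-pair levels in control_GPR64. The part of other cells in these values was not tested.

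**Figure D3:**
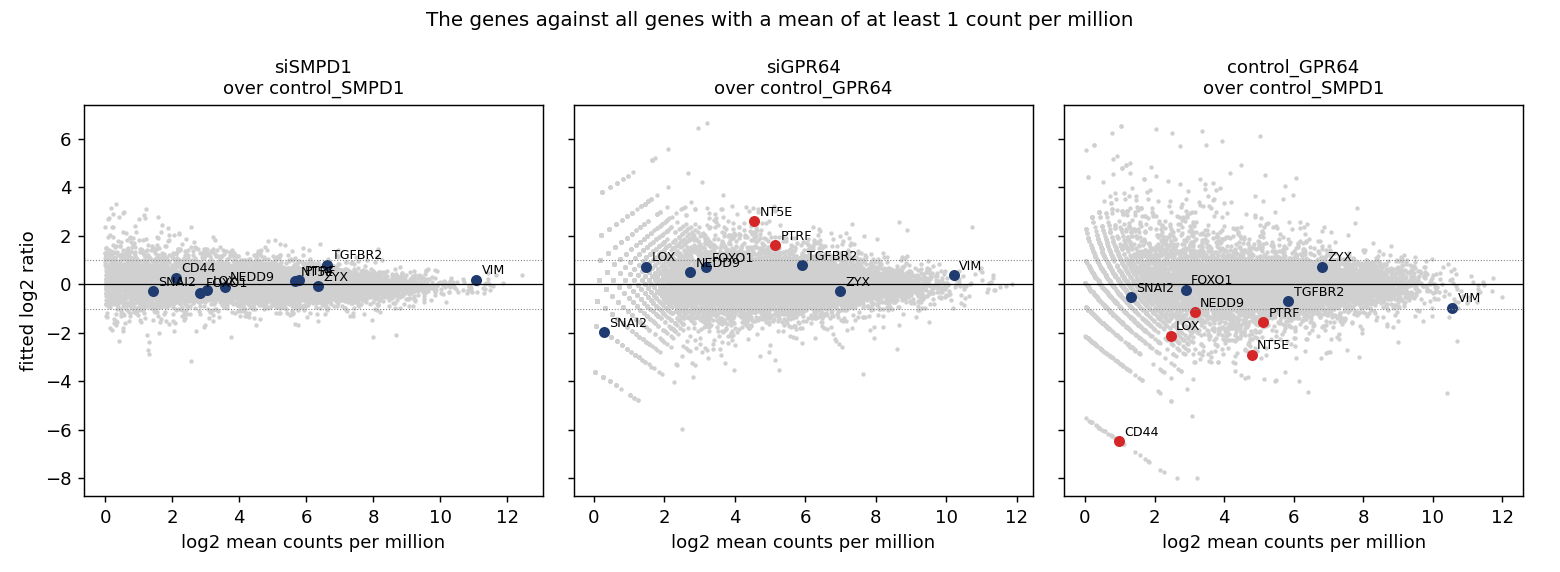
Fitted log2 ratio against log2 mean CPM for every gene with a mean of at least 1 (grey), with the 10 genes labelled, red where past the rule of size. The grey cloud is wider at low levels in the 2 panels that use the shallower libraries; NT5E and PTRF lie high in it in siGPR64 and low in it between the controls. The fitted CD44 value in the last panel rests on a count of 0 and is not a measured fold.

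PTRF, now named CAVIN1, encodes the coat protein that caveolae need to form. It was at 51.9 and 58.4 CPM in control_SMPD1 and siSMPD1, and 17.5 and 53.7 in control_GPR64 and siGPR64. As for NT5E, 3 libraries are alike and control_GPR64 is low. PTRF was 3.05-fold higher in siGPR64 than in its partner (2.21 to 4.32) and 1.12-fold higher in siSMPD1 (1.03 to 1.23). Against control_SMPD1 the siGPR64 library was 1.03-fold higher with an interval from 0.858 to 1.24. The controls differed by 2.97-fold (2.24 to 4.02).

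CAV1, the membrane scaffold on which PTRF acts and itself a gene that EWS-FLI1 switches on, did not follow PTRF within the pairs. CAV1 was 1.81-fold lower in siGPR64 (1.73 to 1.9), at 1873 CPM in control_GPR64 and 1034 in siGPR64, and its log2 ratio in siSMPD1 was -0.06. In control_SMPD1 it was at 3093 CPM. Control_GPR64 was thus the lower control for CAV1, as for PTRF, and siGPR64 was below both controls. In the caveolae list, 2 of 10 measured genes were higher past the rule in siGPR64 and 1 of 10 in siSMPD1, with medians of 0.52 and 0.26 and none lower. Of all genes tested, 6.56% were higher in siGPR64 and 2.49% in siSMPD1. Against control_SMPD1 the siGPR64 median of this list was -0.11, with 1 gene higher and 1 lower past the rule. EHD3, a membrane ATPase of the EHD family, was 3.2-fold higher in siGPR64 (1.93 to 5.73), and MURC, the muscle cavin, 3.14-fold higher (1.42 to 8.5) on 8 and 23 reads. PRKCDBP, a further cavin, was 2.16-fold higher in siSMPD1 (1.56 to 3.05). It had 3 and 4 counts in the GPR64 pair, so no ratio is read there.

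VIM encodes vimentin, the intermediate filament of mesenchymal cells. It stood at 2005 and 2305 CPM in control_SMPD1 and siSMPD1, and 1026 and 1339.8 in control_GPR64 and siGPR64. All 4 levels were separated by their counting intervals, the GPR64 pair lying below the SMPD1 pair. Within each pair the knockdown was the higher: by 1.15-fold (1.13 to 1.17) for siSMPD1 and by 1.31-fold (1.24 to 1.37) for siGPR64. These ratios are small beside the 1.95-fold difference between the controls (1.88 to 2.03). With at least 2994 reads in each library, sampling of reads limits VIM least of the 10.

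In the GPR64 pair most other filament genes were also higher. Of 9 measured, 8 had an interval above 1, beside 22.2% of all genes tested, and LMNB1 one below, at 1.4-fold lower (1.25 to 1.55). Of the 9, 3 were higher past the rule in siGPR64 and none lower, beside 6.56% and 5.18% of all genes tested. The median was 0.75, and the median between the controls was -0.76. Against control_SMPD1 the siGPR64 median was 0.10, with none of the 9 past the rule and intervals above 1 for 4 and below for 1. SYNM, or synemin, which assembles with vimentin, was 12.7-fold higher (5.66 to 44.5) on 5 and 61 reads. KRT8 was 3.92-fold higher (2.34 to 7.18) and NES, the nestin gene, 2.63-fold higher (2.1 to 3.33). SYNM, KRT8 and NES were lower in control_GPR64 than in control_SMPD1 past the rule, with log2 ratios of -3.22, -2.12 and -1.07. In siSMPD1 the median was -0.19 with 1 of 9 higher past the rule, beside 2.49% of all genes tested.

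ZYX encodes zyxin, a LIM protein of focal adhesions and stress fibres that is known to be held low by EWS-FLI1. Unlike most of the list it was highest in control_GPR64: 84.3 and 80.0 CPM in control_SMPD1 and siSMPD1, and 140.1 and 115.6 in control_GPR64 and siGPR64. The GPR64 pair was thus above the SMPD1 pair. ZYX was 1.21-fold lower in siGPR64 (1.04 to 1.41) and 1.05-fold lower in siSMPD1 (0.981 to 1.13). It was the single gene of the 10 with an interval below 1 in the GPR64 pair and the single one above 1 between the controls, at 1.66-fold higher (1.49 to 1.85). Of 18 zyxin and focal adhesion genes, 2 were higher and 1 lower past the rule in siGPR64, beside 6.56% and 5.18% of all genes tested. None passed in siSMPD1, and the medians were -0.01 in siGPR64 and -0.00 in siSMPD1. The zyxin relatives WTIP and LIMD1 were higher, at 2.59-fold (1.44 to 5.09) and 2.08-fold (1.45 to 3.05), and PTK2, the focal adhesion kinase, was 2.07-fold lower (1.84 to 2.34). LIMD1 was lowest in control_GPR64, at 16.1 CPM, and siGPR64 at 33.7 was below control_SMPD1 at 42.3. In siGPR64 WTIP was above both controls and PTK2 below both.

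NEDD9, a docking protein of the CAS family that links adhesion to kinase signalling, was at 12.3 and 11.4 CPM in control_SMPD1 and siSMPD1, and 5.48 and 7.83 in control_GPR64 and siGPR64. No neighbours in this order were separated by their intervals. It was lower in siSMPD1 by 1.07-fold (0.889 to 1.3) but higher in siGPR64, by 1.42-fold (0.704 to 2.95), while the controls differed by 2.23-fold (1.35 to 3.99). Among 10 measured CAS family members and partners, 1 was higher past the rule in siGPR64, beside 6.56% of all genes tested. This was BCAR3, an adaptor of the family, at 3.71-fold (1.11 to 23.4) on 3 and 11 reads. The 3 reads of its control are at the 3-count limit. None of the 10 partners passed the rule in siSMPD1.

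LOX encodes lysyl oxidase, which crosslinks collagen and elastin and is known as a repressed target of the fusion. It was at 9.0 and 7.58 CPM in control_SMPD1 and siSMPD1, and 2.06 and 3.53 in control_GPR64 and siGPR64. The GPR64 pair was low, with 6 and 9 reads. LOX was lower in siSMPD1 by 1.19-fold (0.947 to 1.49) but higher in siGPR64, by 1.66-fold (0.545 to 5.86), so neither direction is determined. Against control_SMPD1, control_GPR64 was 4.31-fold lower (1.97 to 12.1) and siGPR64 2.53-fold lower (1.31 to 5.68).

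The other crosslinking genes had mostly positive log2 ratios: 7 of 8 measured in siSMPD1 and 8 of 8 in siGPR64, beside 49.5% and 51.1% of all genes tested. None passed the rule in either pair, and the median was 0.60 in siSMPD1 and 0.67 in siGPR64. LOXL3, an amine oxidase of the LOX family, had the largest ratio, with 5 counts in control_GPR64 and 12 in siGPR64. LOXL1, named after its values were seen, was 1.92-fold higher in siGPR64 (1.59 to 2.32). The intervals lay above 1 for 6 of 8 in siSMPD1, with 1 below, and for 4 of 8 in siGPR64, beside 28.1% and 22.2% of all genes tested. Against control_SMPD1 the siGPR64 median was 0.06 with 5 of 8 above 0, and control_GPR64 had 6 of 8 below 0 with a median of -0.38.

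**Figure D4:**
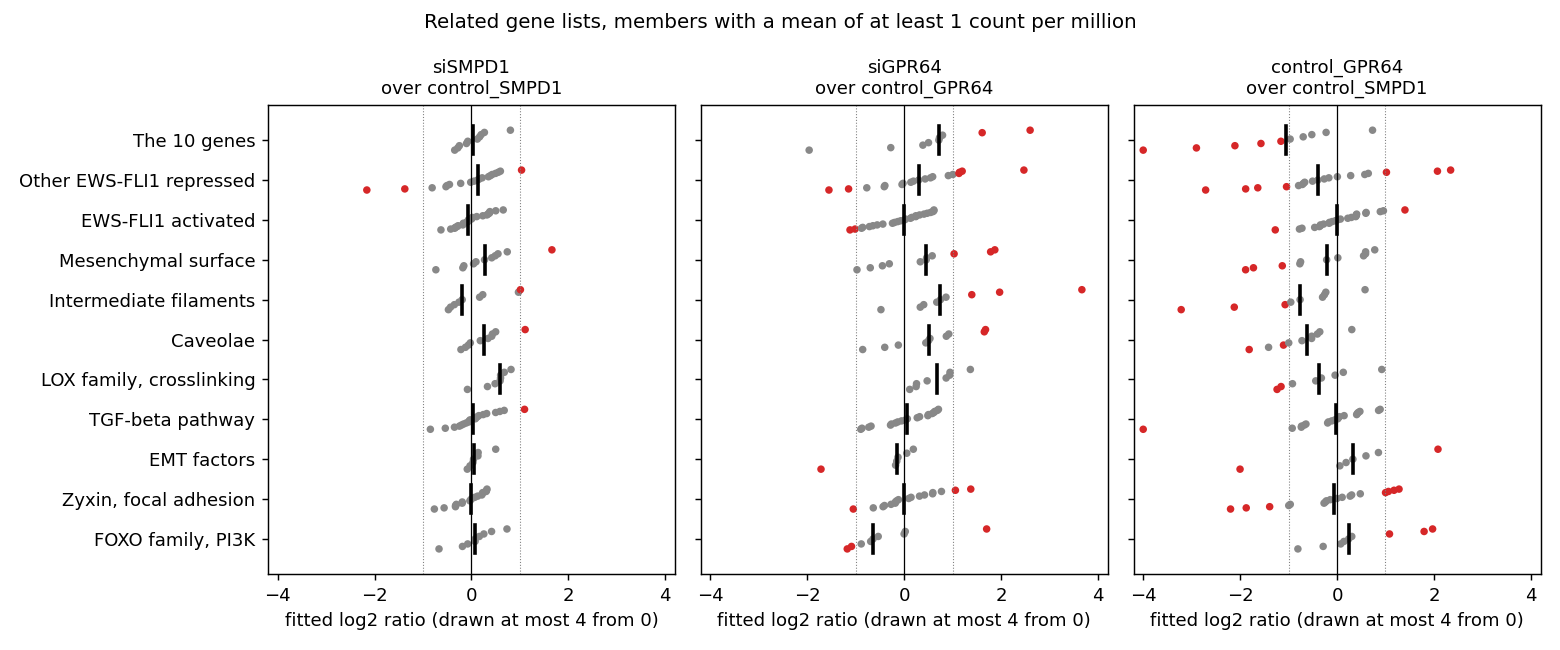
Fitted log2 ratios of the 10 genes and of 10 related lists in the 3 comparisons; each point is a gene with a mean of at least 1 CPM, red where past the rule of size, and black bars are medians. The 10 genes have a median of 0.02 in siSMPD1, 0.71 in siGPR64 and -1.06 between the controls, while EWS-FLI1 activated genes have medians of -0.06, 0.01 and 0.01.

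Other genes described as repressed by EWS-FLI1 were mixed in direction. Of 19 measured in siSMPD1, 1 was higher and 2 lower past the rule, beside 2.49% and 1.11% of all genes tested, with a median of 0.13. In siGPR64 4 were higher and 2 lower, beside 6.56% and 5.18% of all genes tested, with a median of 0.30. TGFBI, a matrix protein induced by TGF-beta, was 5.54-fold higher in siGPR64 (4.64 to 6.7), and, as for NT5E, control_GPR64 was the low library, by a log2 ratio of -2.71 to control_SMPD1. The cell cycle inhibitor gene CDKN1A was 2.94-fold lower in siGPR64 (2.38 to 3.67) and stood 2.05-fold higher in siSMPD1 (1.86 to 2.27). Control_GPR64 was its highest library, at 129.1 CPM, so siSMPD1 at 62.8 CPM was below the other control. Against control_SMPD1 the siGPR64 library was 1.43-fold higher (1.16 to 1.75). CYR61, a matricellular YAP target, was 4.46-fold lower in siSMPD1 (3.58 to 5.66) and had 58 and 38 counts in control_GPR64 and siGPR64. Of 25 EWS-FLI1 activated genes, none passed in siSMPD1 and 2 were lower in siGPR64, where 5.18% of all genes tested were lower. These were STEAP2, a metalloreductase gene, at 2.02-fold (1.8 to 2.28) and the Hedgehog effector GLI1 at 2.17-fold (1.49 to 3.27). Control_GPR64 was the highest library for both. GLI1 was at 32.5 CPM there, 14.9 in siGPR64 and 12.3 in control_SMPD1, so siGPR64 was above the other control. STEAP2 was at 322.3 CPM in control_GPR64, 159.4 in siGPR64 and 212.5 in control_SMPD1, so siGPR64 was below both controls. FLI1 itself was 1.24-fold higher in siGPR64 (1.01 to 1.51) and 1.04-fold lower in siSMPD1 (0.973 to 1.12), and EWSR1 was 1.32-fold lower in siGPR64 (1.19 to 1.47). Against control_SMPD1 the siGPR64 library was 1.03-fold lower for FLI1 (0.895 to 1.2) and 1.06-fold lower for EWSR1 (0.968 to 1.16). Both of those intervals hold equality. Control_GPR64 was 1.28-fold lower than control_SMPD1 for FLI1 (1.1 to 1.49) and 1.25-fold higher for EWSR1 (1.16 to 1.35).

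Actin genes driven by MRTF and SRF, a programme the fusion is also known to dampen, showed no common direction. Of 18 measured, 2 were higher and 2 lower past the rule in siGPR64, beside 6.56% and 5.18% of all genes tested. None passed in siSMPD1, and the medians were 0.19 in siGPR64 and -0.00 in siSMPD1. CALD1, the caldesmon gene, was 2.3-fold higher (2.03 to 2.61), CNN3, a calponin, 2.51-fold lower (2.18 to 2.91) and ACTA2, smooth muscle actin, 2.06-fold lower (1.69 to 2.54). ACTA2 was highest in control_GPR64, at 113.4 CPM, and siGPR64 at 54.8 was above control_SMPD1 at 32.8. CALD1 was lowest in control_GPR64, at 126.7 CPM, with 232.5 in control_SMPD1 and 291.5 in siGPR64. CNN3 in siGPR64, at 103.0 CPM, was below both controls, at 232.9 and 259.3. Among the junction and cadherin genes, OCLN had the largest ratio, on 6 and 14 reads in the GPR64 pair, and none of 3 measured passed the rule.

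With the other control as the base, the list read differently. Of the 10 genes, 7 were higher past the rule in siSMPD1 against control_GPR64, where 10.5% of 12887 genes tested were higher and 8.02% lower, and the median was 1.34. With 1 CPM asked of both libraries the count is 6, since CD44 has 0 counts in control_GPR64. Of the 10, 3 (LOX, CD44 and SNAI2) were lower and none higher in siGPR64 against control_SMPD1, where 5.25% of 12812 genes tested were lower and 6.18% higher, and the median was -0.43. CD44 and SNAI2 have 1 read each in siGPR64 and pass through control_SMPD1 alone, and with 1 CPM asked of both libraries only LOX is left. When both controls were taken as 1 group, edgeR's quasi-likelihood test gave no gene of the 10 an adjusted p under 0.05 for either knockdown. The smallest adjusted p of the 10 in edgeR was 0.999 for siSMPD1 and 0.9999 for siGPR64, and DESeq2 also called none of the 10. At an unadjusted p under 0.05, TGFBR2 in siSMPD1 was the single call of each tool, at 0.0307 in edgeR and 0.0422 in DESeq2, with log2 ratios of 1.10 in both. Of all 13664 genes fitted 1.31% were under it in either tool, and the adjusted p of TGFBR2 was 0.999 in edgeR and 0.9999 in DESeq2. These fits have 1 residual degree of freedom, from the 2 controls alone.

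The median profile of the 10 genes, as log2 CPM centred on each gene's own mean, was 0.41 and 0.58 in control_SMPD1 and siSMPD1, and -0.71 and -0.06 in control_GPR64 and siGPR64. Among 8206 genes outside the lists with a mean of at least 20 CPM, the 5 closest to it over the 4 libraries were CCDC117, LOC341056, SSH2, PCNXL3 and AACS, at Euclidean distances of 0.106 to 0.141. SSH2, a slingshot phosphatase that activates cofilin, was at 144.6 and 160.3 CPM in control_SMPD1 and siSMPD1, and 65.8 and 98.3 in control_GPR64 and siGPR64. With 4 libraries many genes can share a profile, so this likeness is a description.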

How the data were processed

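Ribosome-depleted total RNA of A673 cells gave paired-end libraries, per the labels' protocols. The tools listed are HTSeq, TopHat2, bcl2fastq and SAMtools, with build hg19, per the submitters' processing notes. The versions, annotation and strand setting used were not given in the sources used here. Each deposited file is 1 library of whole-number counts by gene symbol, which the authors did not normalize. The 5 HTSeq summary lines, 36.5% to 44.8% of the entries, were left out of library sizes.

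Counts were scaled with TMM (edgeR 4.0.16, R 4.3.3). Log2 ratios used a prior of 0.5 count, with exact Clopper-Pearson 95% intervals of the read share. Differences between pairs have Wald counting intervals. Intervals and the limit of 3 counts cover counting error only, and no source names molecular identifiers, so PCR copies may be counted. With 1 library per group no comparison as designed has a test, so the rule of size was used, and its code was tested on simulated data. As an alternative, both controls were taken as 1 group and tested in edgeR and DESeq2 1.42.0. The 10 genes, the related lists, the rule and the alternatives were chosen with earlier results of these data known. Named are the 10, up to 3 genes a related list past the rule (otherwise 1, the largest ratio), and the 5 closest profiles; genes named beside them (such as CAV1, LOXL1 and the CD44 linkers) were chosen after their values were seen. Exon lengths are from GENCODE 29 and upstream sequences from RefSeq (GRCh38.p14), another build than the counts, so no position is tied to them.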

Additional observations from a re-analysis of the deposited data

Results flagged for a closer look

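For 4 of the 10 genes the log2 ratio in the GPR64 pair differed from that in the SMPD1 pair by more than counting error (siGPR64 pair minus siSMPD1 pair), and so did 45.6% of the 12386 genes tested in both pairs. The difference was 2.48 for NT5E (counting interval 1.77 to 3.19), 1.44 for PTRF (0.96 to 1.92), 1.06 for FOXO1 (0.18 to 1.94) and 0.18 for VIM (0.11 to 0.26). With 1 library per group the difference was not tested over cultures. For NT5E, PTRF and VIM the control_GPR64 library had the lowest level of the 4.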

How the results depend on the processing

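DESeq2 size factors, total gene counts, a prior of 2 counts, no filter and a 5 CPM filter kept the direction and the call of every gene of the 10 they measured; the 5 CPM filter left 23 of 29 ratios. Scaling moved the median of all genes by at most 0.05. With the other control, the median of the 10 went from 0.02 to 1.34 in siSMPD1 and from 0.71 to -0.43 in siGPR64, and genes past the rule of the 10 from 0 to 7 in siSMPD1. LOX then read 1.86 and NEDD9 1.06 in siSMPD1, and LOX -1.34 and NT5E -0.28 in siGPR64. All genes past the rule in siSMPD1 were then 1356 higher and 1034 lower, from 318 and 141. A fold of 1.5 gave 1 gene of the 10 in siSMPD1 (TGFBR2) and 8 between the controls, from 5. Over all genes it gave 925 higher and 610 lower in siSMPD1, 1694 and 1454 in siGPR64 (from 842 and 664), and 1864 and 2121 between the controls (from 899 and 1066). Without the filter 228 genes were lower in siSMPD1; at 5 CPM 121 were higher and 77 lower there, and 555 higher between the controls, since fewer genes were tested. With both controls as 1 group, edgeR called 0 genes in either knockdown (179 at an unadjusted p under 0.05 in siSMPD1 and 313 in siGPR64), and DESeq2 1 lower and 0 higher in siSMPD1 and 0 in siGPR64; of the 10, the 2 called in siGPR64 became 0 by both. Setting counts of 0 to 3, added after the data were seen, left the medians as they were by construction: CD44 is the single 0 among the 10, and it stays below the median between the controls. No paired analysis was possible because the labels carry no replicate numbers and the pairs have different targets, so that a block by pair would average SMPD1 and GPR64. Depth limits LOX, CD44, SNAI2, NEDD9 and FOXO1 in the GPR64 pair.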
